A study of Mus musculus with 56 samples.

Results

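CD4+ T cells that lack ornithine decarboxylase (ODC) were compared with wild-type (WT) cells after both were polarized in culture into regulatory T (Treg) cells, the CD4+ subset that restrains immune responses. The members of the comparison are the 8 Treg libraries of the Odc count table, 4 labelled Odc-/- and 4 labelled WT, out of 31 libraries in that table and 55 in the count tables of the series, and all 13839 genes that passed the low-count filter, of 47937 listed. The cells came from the spleen and lymph nodes of C57BL/6 mice with loxP sites around exons of Odc1 (named Odc in the study), and Odc-/- cells carried Cre recombinase under the control of the CD4 promoter, which acts in T cells, whereas WT mice had no Cre. The presence of Cre and the loss of Odc therefore cannot be told apart in this design. Cells of both genotypes were activated with 5 µg/mL anti-CD3 and 2 µg/mL anti-CD28 and kept under Treg conditions until day 4, with IL-2 and TGF-β at 10 ng/mL each and antibodies to IFN-γ and IL-4 at 4 µg/mL each. The same table holds TH1, TH2 and TH17 cultures of both genotypes, of which the TH17 cultures also received TGF-β, at 5 ng/mL, and all 8 groups were fitted together.

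ODC converts ornithine to putrescine, the step that commits the cell to making the polyamines spermidine and spermine. Spermidine donates the group from which deoxyhypusine synthase (Dhps) and deoxyhypusine hydroxylase (Dohh) build hypusine, a modified lysine found in the translation factor eIF5A. TGF-β and IL-2 induce the transcription factor Foxp3, which holds cells in the Treg program and keeps helper cytokines such as IFN-γ silent, and the study asked whether polyamine synthesis is needed for such lineage programs.

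The 8 Treg libraries held between 7430483 and 9145214 counts, each labelled as a biological replicate. Total counts were lower in the 4 Odc-/- libraries, at 7430483 to 8012659, than in the 4 WT libraries, at 8050429 to 9145214, and more genes had at least 1 count in Odc-/- libraries, 17686 to 18060 against 17171 to 17649. The share of counts on the mitochondrial genome was 2.20% ± 0.434 in Odc-/- libraries and 1.14% ± 0.296 in WT libraries (SD, n = 4 each, as for every ± that follows). These 3 measures did not overlap between genotypes (p = 0.0286 each in exact two-sided permutation tests, the smallest value that 4 against 4 allows). WT replicate 4 stood apart from the other WT libraries, as the far value of its group at 5.72% of the genes tested, against 0.701% to 0.889% for the other WT libraries and 0.766% to 3.01% for the Odc-/- libraries. Libraries of 1 group differed from each other by more than counting error, so none was taken for a repeat of another.

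CD4+ T cells had been isolated by negative selection, a step meant to remove other cells, before the cultures began. The cells of both genotypes expressed T cell genes, and markers of several other cell types were higher in Odc-/- libraries. The summed level of 11 T cell identity genes was 3958 to 5390 CPM (counts per 1000000 of the scaled library size) in Odc-/- and 4117 to 5825 CPM in WT libraries. Cd3e, a chain of the T cell receptor complex, had 257 CPM and 243 CPM on average. The sum of 10 CD8 T and NK cell markers was 485 to 749 CPM in Odc-/- against 60.7 to 97.5 CPM in WT libraries, and 9 of the 10 rose. That of γδ T cell markers was 504 to 705 CPM against 17.8 to 41.3 CPM, with all 7 tested of 9 listed higher. B cell markers summed to 519 to 747 CPM against 229 to 262 CPM (9 of 10 higher), and myeloid markers to 154 to 858 CPM against 25.6 to 54.0 CPM (11 of 14 tested higher). Basophil and mast cell markers summed to 83.8 to 236 CPM against 29.3 to 47.6 CPM (9 of 12 tested higher). In these 5 lists every Odc-/- library lay above every WT library. Markers of dendritic cells and MHC class II overlapped, at 369 to 1065 CPM against 213 to 386 CPM, although 6 of 7 tested rose. These counts are of markers called by the thresholds given below, at which 13.9% of all genes were higher. Without Odc-/- replicate 1, 4 dendritic cell and MHC class II markers were called higher, and 8 B cell markers higher and 1 lower. Without Odc-/- replicate 3, 9 myeloid markers and 7 of 11 tested basophil and mast cell markers were called higher. Erythroid markers were near 0 in all 8 libraries, at most 7.26 CPM in sum, and both tested, Epor and Hbb-bt, were called lower. Without Odc-/- replicate 2 or 4 or WT replicate 1, 1 of them was called lower. Among defining markers, the neutrophil genes Csf3r and Ly6g, the dendritic cell genes Clec9a and Siglech and the γδ T cell gene Cd163l1 had 0 counts in all 4 WT libraries. Whether the marker transcripts came from other cells in the cultures or from the T cells themselves was not tested. In bulk samples, fewer cells of a type and less RNA per cell cannot be told apart.

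**Figure D1:**
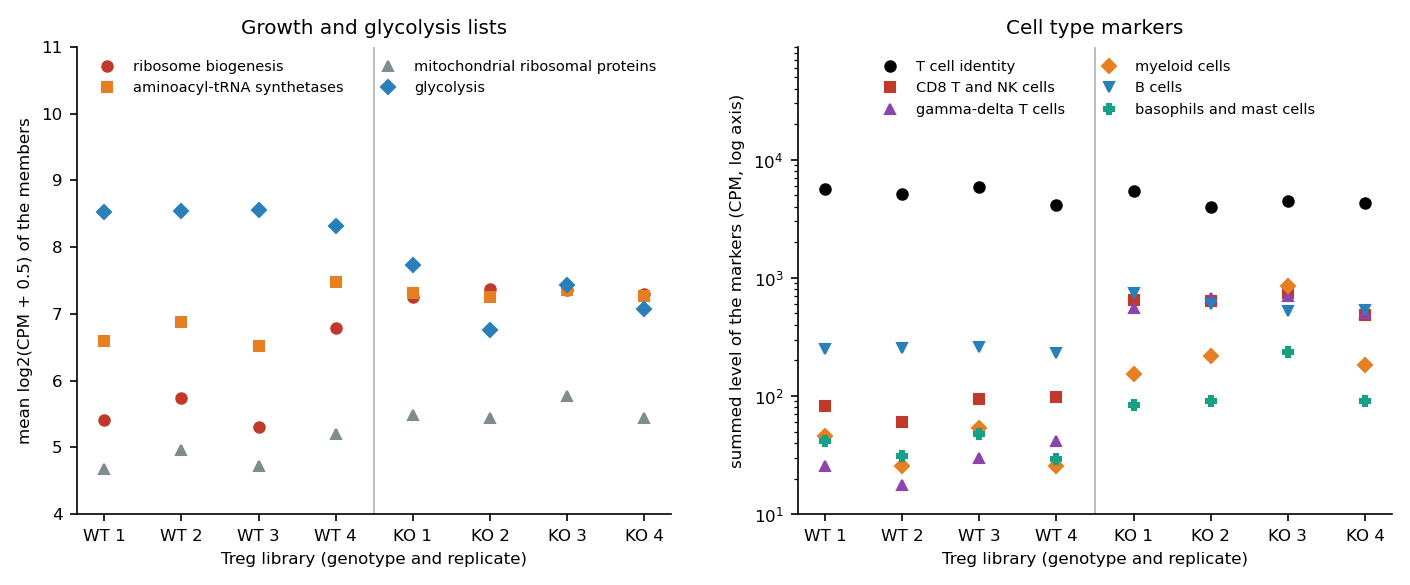
Levels of gene lists in each of the 8 Treg libraries (x axes: genotype and replicate). The left panel plots the mean log2(CPM + 0.5) of the members of 4 lists, and the right panel plots the summed CPM of 6 marker lists on a log axis. WT replicate 4 lies between the other WT libraries and the Odc-/- libraries for ribosome biogenesis, and Odc-/- replicate 3 has the highest myeloid sum, 858 CPM.

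Odc1 (ENSMUSG00000011179.7, chromosome 12, 17544794 to 17551505 of GRCm38) was measured at similar levels in both genotypes. It had 482, 457, 493 and 443 CPM in Odc-/- replicates 1 to 4 and 357, 401, 376 and 493 CPM in WT replicates 1 to 4. The groups overlapped, and the log2 fold change of Odc-/- against WT was 0.20 (SE 0.16, adjusted p = 0.282). Counts are per gene, so reads from the exons outside the loxP sites enter them, and these values do not check the deletion.

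Odc-/- Treg cells differed from WT Treg cells at 3318 of 13839 genes (24%), where a call needed a change of over 2-fold and a p-value, adjusted by Benjamini-Hochberg, of less than 0.05 in edgeR's quasi-likelihood test. Of these, 1922 (13.9% of the genes tested) were higher and 1396 (10.1%) lower in Odc-/- cells. At 6335 genes (45.8%) the 4 Odc-/- libraries did not overlap with the 4 WT libraries, and 2826 of the called genes were among them. Called genes that rose had a median level of 2.14 CPM in WT and 9.69 CPM in Odc-/- cells, and 1178 of the 1922 had less than 5 CPM in WT cells. Called genes that fell had a median level of 15.2 CPM in WT and 4.44 CPM in Odc-/- cells. Of these 1396 genes, 238 had at least 100 CPM in WT cells, against 54 of those that rose. The changes were large for many genes, with 407 genes more than 8-fold higher and 138 more than 8-fold lower. The median log2 fold change over all genes tested was 0.07.

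The largest increases among called protein-coding genes of at least 5 CPM, with groups that did not overlap, were those of P2rx2, Spns2, Klra5, Ngp, Gzma, S100a9, S100a8, Gzmd, Il9 and Hrh3. The 5 CPM were a mean over the 8 Treg libraries, which a gene near 0 in 1 genotype can reach through the other. P2rx2, an ATP-gated channel, had 3.96, 15.9, 3.88 and 17.1 CPM in Odc-/- replicates 1 to 4 and at most 0.117 CPM in WT libraries, at least 30.9-fold higher (against a floor of 3 counts per library). Spns2, a transporter of sphingosine-1-phosphate, had 18.6, 12.3, 18.9 and 18.2 CPM, at least 51.5-fold above its WT level. Klra5, an NK cell receptor of the Ly49 family, had 19.6, 22.9, 33.7 and 15.6 CPM and was at least 69.4-fold higher. Il9, a cytokine of helper and innate cells, stood at 175, 221, 210.3 and 229 CPM in Odc-/- and at 2.01, 2.27, 2.07 and 7.34 CPM in WT replicates, a log2 fold change of 5.94 (SE 0.91, adjusted p = 7.13e-06) that was 6.61 without WT replicate 4. Hrh3, a histamine receptor, rose from 0.741 to 1.34 CPM to 16.6 to 91.2 CPM, and Odc-/- replicates 2 and 4 were the higher ones for both Hrh3 and P2rx2. The neutrophil granule gene Ngp and the calcium-binding alarmins S100a8 and S100a9 were highest in Odc-/- replicate 3, where they had 131, 166 and 261 CPM. Without that library their log2 fold changes were 5.06, 4.47 and 4.44, against 6.42, 6.07 and 6.09 with it, and that of S100a9 was 7.01 without WT replicate 3. They moved with the myeloid marker sum, and the part of other cells in them was not tested.

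The largest decreases were those of Myh7b, Selenbp1, Itga7, Gipr, Hap1, Grin1, Smtnl2, Dnm1, Trat1 and Tgm2. Myh7b, a myosin heavy chain gene, had 16.1, 9.61, 17.7 and 2.33 CPM in WT replicates 1 to 4 and at most 0.132 CPM in Odc-/- libraries, at least 29.8-fold lower. Itga7, an integrin chain that binds laminin, had 193, 134, 219.6 and 57.1 CPM in WT and 3.7, 1.81, 3.5 and 1.56 CPM in Odc-/- replicates, a log2 fold change of -5.84 (SE 1.12, adjusted p = 1.1e-04). Selenbp1, a selenium-binding protein, went from 127 ± 58.2 CPM to 1.92 ± 1.8 CPM, and Gipr, the receptor of an incretin hormone, from 50.8 ± 36 CPM to 0.914 ± 1.16 CPM. In each of these 4 genes WT replicate 4 was the lowest WT library and still lay above every Odc-/- library. Tgm2, the tissue transglutaminase, had 397, 299, 401 and 171 CPM in WT and 24.2, 2.77, 25.8 and 4.95 CPM in Odc-/- replicates (log2 fold change -4.46, SE 0.60, adjusted p = 1.05e-06). Trat1, an adaptor of the T cell receptor complex, had 40.2, 48.7, 37.3 and 33.4 CPM in WT and 2.11, 1.2, 0.906 and 2.35 CPM in Odc-/- replicates (log2 fold change -4.60, SE 0.37, adjusted p = 2.09e-10). Hap1, a transport adaptor, fell at least 30.7-fold. The glutamate receptor subunit Grin1 and the endocytic GTPase Dnm1 fell by 35.9-fold and 28-fold. The smoothelin-like gene Smtnl2 had 6.41 to 14.5 CPM in WT libraries and 0.12 to 0.925 CPM in Odc-/- libraries. Leaving out Odc-/- replicate 1, its highest Odc-/- library, moved the fitted log2 fold change of Smtnl2 from -5.14 to -6.38. Without the same replicate the fitted log2 fold changes of Selenbp1, Gipr and Grin1, which near the floor depend on the prior count, were -6.89, -7.17 and -5.90, against -6.06, -5.80 and -5.17 with it.

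The Treg transcription factor Foxp3 stayed within the spread of the replicates, whereas Treg surface receptors were called in both directions and several suppressive effectors rose. Foxp3 had 395, 407, 312 and 517 CPM in Odc-/- replicates and 410.4, 471, 393 and 639 CPM in WT replicates. The groups overlapped, and the log2 fold change was -0.23 (SE 0.29, adjusted p = 0.499). Il2ra, the high-affinity chain of the IL-2 receptor, went from 2702 ± 318 CPM to 2084 ± 551 CPM (log2 fold change -0.37, SE 0.15, adjusted p = 0.0284), short of 2-fold. Ikzf2, which encodes Helios, had 41.3 ± 8.54 CPM in WT and 73.4 ± 21.6 CPM in Odc-/- cells, also short of 2-fold (log2 fold change 0.83, SE 0.18, adjusted p = 2.66e-04). The median log2 fold change of the 13 tested transcription factors of the Treg list was -0.23. Of these 13, 3 fell, against 10.1% of all genes. They were Irf4, which drives effector Treg differentiation (log2 fold change -1.02, SE 0.11, adjusted p = 4.48e-08), Bach2, which restrains effector differentiation (-1.17, SE 0.15, adjusted p = 1.94e-07), and Nr4a1, a factor induced by the T cell receptor (-1.25, SE 0.15, adjusted p = 1.8e-07). Irf4 lay close to the 2-fold threshold and lost its call when Odc-/- replicate 2 or 3 or WT replicate 4 was left out.

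Among 18 receptors and surface proteins of the Treg program, 4 rose and 4 fell, against 13.9% and 10.1% of all genes. The median was -0.02. Ctla4, the inhibitory receptor that strips costimulatory ligands from antigen-presenting cells, had 747, 612, 803 and 386 CPM in WT replicates and 269, 116, 141 and 131 CPM in Odc-/- replicates, with no overlap (log2 fold change -1.96, SE 0.38, adjusted p = 1.17e-04). The tumor necrosis factor receptor family members Tnfrsf18 (GITR), Tnfrsf4 (OX40) and Tnfrsf9 (4-1BB) fell together, with log2 fold changes of -1.34, -1.27 and -1.17 (SE 0.27, 0.18 and 0.34). Itgae, the integrin chain CD103 that holds T cells in epithelium and responds to TGF-β, rose from 15.2, 9.51, 15.4 and 20.2 CPM in WT replicates to 91.3, 199, 107 and 181 CPM in Odc-/- replicates (log2 fold change 3.27, SE 0.28, adjusted p = 7.27e-10). Il1rl1, the IL-33 receptor, rose from 1.65 ± 0.742 CPM to 22 ± 5.25 CPM, and Gpr83, a receptor found on Treg cells, from 38.8 ± 14.1 CPM to 109.8 ± 32.2 CPM. Mast cells and basophils also express Il1rl1, and CD8 T and γδ T cells Itgae. The marker sums of these cells were higher in the same libraries, and their part was not tested.

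Of 13 suppressive effectors, 5 rose and 1 fell, against 13.9% and 10.1% of all genes, and the median was 0.62. Il10, the gene of the anti-inflammatory cytokine, had 2.22, 0.517, 3.57 and 2.56 CPM in WT replicates and 71.4, 26.7, 57.6 and 23.2 CPM in Odc-/- replicates, a log2 fold change of 4.34 (SE 0.36, adjusted p = 6.14e-10). Myeloid, NK and CD8 T cells also express genes of this list such as Il10, Fgl2 and Gzmb, their markers were higher in the same libraries, and the part of such cells was not tested. Fgl2, a secreted protein by which Treg cells can act on dendritic cells, rose by 2.77 on the log2 scale (SE 0.30), and the opioid precursor Penk by 1.34 (SE 0.41). Ebi3, a subunit of IL-35, fell by 1.01 on the log2 scale (SE 0.20), at the threshold, and its call was lost in 5 of the 8 fits that left out a Treg library. Tgfb1 had a log2 fold change of 0.62 (SE 0.09), short of 2-fold. In the TGF-β signalling list, 1 of 20 tested rose and 3 fell, against 13.9% and 10.1% of all genes, and 2 rose without Odc-/- replicate 3, WT replicate 1 or WT replicate 3. Bambi, a decoy receptor, rose from 5.3 to 15.2 CPM. Ltbp3, which tethers latent TGF-β, went from 16 ± 10.1 CPM to 2.12 ± 0.929 CPM, and the TGF-β activating integrin chain Itgb8 from 4.37 ± 1.51 CPM to 1.93 ± 1.08 CPM. The call of Itgb8 was lost without Odc-/- replicate 2 or 3 or WT replicate 1 (adjusted p = 0.078, 0.11 and 0.112 in edgeR's test). Smad3, a signal transducer of the receptor, had a log2 fold change of -0.72 (SE 0.18, adjusted p = 0.00132).

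**Figure D2:**
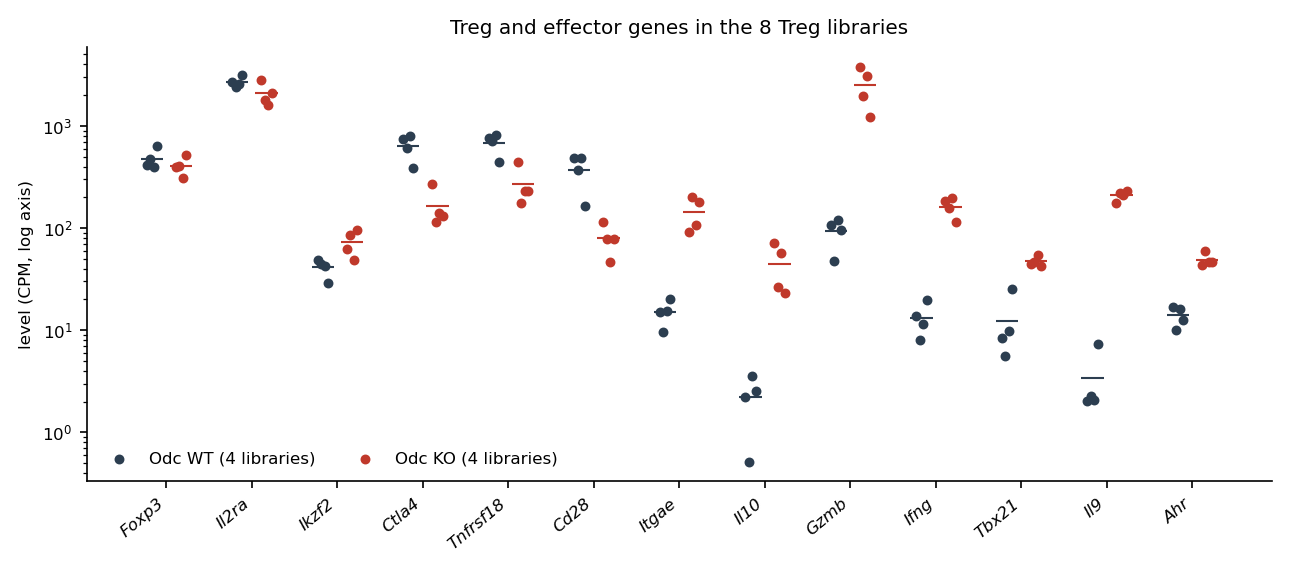
Levels of 13 Treg and effector genes in CPM on a log axis, with 1 point per library (4 WT, dark, and 4 Odc-/-, red) and a line at each group's mean. The Foxp3 points of the genotypes overlap, from 312 to 639 CPM, whereas those of Gzmb, Il10, Ifng, Il9 and Ctla4 do not.

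Many genes of the TH1 program rose in Odc-/- Treg cells although IFN-γ was neutralized in the cultures. Of 22 tested, 12 rose and 1 fell, against 13.9% and 10.1% of all genes, and the median log2 fold change was 1.22. Ifng, the TH1 cytokine, had 13.7, 7.96, 11.4 and 19.6 CPM in WT replicates and 184, 157, 195 and 114 CPM in Odc-/- replicates, a log2 fold change of 3.63 (SE 0.48, adjusted p = 8.99e-07). Tbx21, which encodes the TH1 factor T-bet, had 8.47, 5.58, 9.91 and 25.3 CPM and 44.5, 46.1, 55 and 42.9 CPM in these groups. WT replicate 4 was the highest WT library for Tbx21 and still lay below every Odc-/- library (log2 fold change 1.95, SE 0.33, adjusted p = 2.15e-05, and 2.56 without it). Eomes, a related T-box factor of cytotoxic cells, rose from 7.93 ± 0.779 CPM to 49.6 ± 10.2 CPM. The chemokine Xcl1 rose from 9.1, 9.51, 12.1 and 20.3 CPM in WT replicates to 348, 798, 686 and 488 CPM in Odc-/- replicates, the largest change of the list (log2 fold change 5.51, SE 0.70, adjusted p = 5.63e-07), and Ccl3, an inflammatory chemokine, rose by 3.17 (SE 0.54). Stat4, the signal transducer of IL-12, fell by 2.44-fold. WT replicate 4 was at 15.0 CPM for Stat4, among the Odc-/- libraries. CD8 T and NK cells also express Ifng, Tbx21, Eomes and Xcl1, their markers were higher in the same libraries, and the part of such cells was not tested.

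Several genes of the TH2 list rose. Of 20 tested, 9 rose and 2 fell, and the median was 0.77. The share that fell is near the 10.1% of all genes, of which 13.9% rose. Il9, Il10 and Il1rl1 rose most, and Il24, a cytokine of the IL-10 family, rose from 4.81 ± 2.77 CPM to 42.7 ± 31.6 CPM, with a log2 fold change of 3.14 that was 2.52 without Odc-/- replicate 1. Il13, an effector cytokine of allergic inflammation, rose from 3.07 ± 0.744 CPM to 9.72 ± 3.74 CPM. Basophils and mast cells also make it, and their markers rose in the same libraries. Gata3, the TH2 master factor, had 53.9, 47.1, 50.6 and 27.9 CPM in WT and 23.5, 34.2, 22.3 and 35.1 CPM in Odc-/- replicates, a log2 fold change of -0.64 (SE 0.19, adjusted p = 0.00559), short of 2-fold. Epas1, which encodes the hypoxia factor HIF-2α, fell from 5.36 ± 1.26 CPM to 0.644 ± 0.295 CPM, and Ecm1, a secreted matrix protein of TH2 cells, from 117 ± 41.8 CPM to 44.1 ± 13.9 CPM, a call that was lost without Odc-/- replicate 2 or WT replicate 3.

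In the TH17 list 5 of 22 rose and 4 fell, with a median of 0.23, against 13.9% and 10.1% of all genes. Rora, an orphan nuclear receptor of TH17 cells, fell from 66.3 ± 17.1 CPM to 24.7 ± 11.5 CPM, and Hif1a, which encodes the oxygen-regulated factor HIF-1α, from 473 ± 97 CPM to 165 ± 29.97 CPM (log2 fold change -1.52, SE 0.21, adjusted p = 8.37e-07). Ahr, the aryl hydrocarbon receptor, rose from 16.7, 10.1, 16.2 and 12.7 CPM in WT replicates to 43.3, 59.2, 46.2 and 46.5 CPM in Odc-/- replicates (log2 fold change 1.81, SE 0.20, adjusted p = 4.55e-08), and the chemokine receptor Cxcr6 by 2.78 on the log2 scale. Il17a, the signature cytokine, was barely detected, at 0 to 0.583 CPM in WT and 1.04 to 2.91 CPM in Odc-/- libraries, where the change was called (log2 fold change 2.99, SE 0.96, adjusted p = 0.00918, and 3.71 without WT replicate 4, both fitted near the floor). Markers of γδ T cells and of CD8 T and NK cells were higher in the same libraries, as given above. The part of such cells in Ahr, Cxcr6 and Il17a was not tested.

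Many cytokines and chemokines were higher. Of 35 cytokines tested 17 rose and 4 fell (median 1.09), and of 25 chemokines and chemokine receptors 17 rose and 1 fell (median 2.26), against 13.9% and 10.1% of all genes. Ccl1, a ligand of CCR8, went from 0.953, 1.14, 0.691 and 4.89 CPM in WT to 21.7, 79.9, 46 and 42.5 CPM in Odc-/- replicates (log2 fold change 4.64, and 5.65 without WT replicate 4), and Ccl22, which attracts CCR4+ T cells, from 11.4 ± 5.28 CPM to 95.1 ± 40.1 CPM. Lta, which encodes lymphotoxin α, was abundant and rose from 229.9, 249, 202 and 563 CPM in WT to 1179, 963, 999 and 975 CPM in Odc-/- replicates. Both groups of genes are also expressed by myeloid, NK and mast cells, whose markers were higher in the same libraries, and the part of these cells was not tested. Leaving out each library in turn gave 14 to 17 cytokines and 15 to 17 chemokines or receptors called higher. Without Odc-/- replicate 2, 2 cytokines were called lower.

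Many cytotoxic genes rose, some from low to high levels. Of 20 granzymes and cytotoxic granule genes tested, 13 rose and 1 fell, against 13.9% and 10.1% of all genes. Their median log2 fold change was 2.30, and in a fit of the 8 Treg libraries alone 8 were called higher. Gzmb, the granzyme that cleaves caspases in target cells, had 107, 47.6, 119.8 and 96.6 CPM in WT replicates and 3788, 1960.3, 3052 and 1229 CPM in Odc-/- replicates, a log2 fold change of 4.76 (SE 0.45, adjusted p = 5.59e-09). Gzma rose from 3.39, 1.45, 4.03 and 3.96 CPM in WT to 395, 158, 258 and 98.7 CPM in Odc-/- replicates and Gzmc from 21.8 ± 9.49 CPM to 740.4 ± 419 CPM. Gzmd was at most 0.318 CPM in WT libraries and at 50.1, 1.57, 8.8 and 0.912 CPM in Odc-/- replicates, at least 46.4-fold higher in the mean, with most of that mean in replicate 1. Its fitted log2 fold change, which depends on the prior count, was 6.02 with and 3.99 without that replicate. Prf1, the pore-forming perforin, had 134, 24.6, 41.9 and 23.5 CPM in Odc-/- replicates, again highest in replicate 1, and 7.3, 6.51, 10.4 and 11.3 CPM in WT replicates. The log2 fold change of Prf1 was 2.66 with and 1.76 without that replicate. Crtam, a receptor of cytotoxic CD4+ cells, rose by 3.17 on the log2 scale, and Serpinb6b, a serpin that inhibits granule proteases, fell by 2.98-fold. Gzmb, Gzmc, Gzmd and the Ly49 gene Klra5 belong to families of similar copies, and how reads shared between copies were counted is not given in the sources used here. Odc-/- replicates 1 and 3 were higher than replicates 2 and 4 for Gzma, Gzmb, Gzmc and Gzmd. CD8 T and NK cell markers moved with these genes. Cd8a rose from 9.42, 6.3, 14.9 and 29.7 CPM in WT to 169, 153, 204 and 132 CPM in Odc-/- replicates, whereas Cd8b1, the other chain of the CD8 heterodimer of conventional CD8+ T cells, had 12, 9.92, 11.6 and 11.7 CPM and 29.6, 10.4, 14.9 and 11.7 CPM (log2 fold change 0.56, SE 0.35, adjusted p = 0.168). Cd4 itself had 835 ± 247 CPM in WT and 511 ± 135 CPM in Odc-/- cells, a log2 fold change of -0.71 (SE 0.23, adjusted p = 0.0112). The activating receptor Klrk1 (NKG2D) rose from 10.8 ± 3.16 CPM to 229 ± 44.7 CPM and Trdc, the constant chain of the γδ T cell receptor, from 10.2 ± 2.98 CPM to 208 ± 24.8 CPM. The basophil protease Mcpt8 was highest in Odc-/- replicate 3, at 54.4 CPM against 11.9 to 12 CPM in the other Odc-/- libraries, and its log2 fold change was 3.55 with and 2.64 without that library.

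Of 16 coinhibitory receptors and Tox factors tested, 5 rose and 1 fell (median 0.32), against 13.9% and 10.1% of all genes. Without Odc-/- replicate 4 or WT replicate 4, 2 fell. Cd160, a receptor of cytotoxic lymphocytes, rose from 0.953, 1.45, 1.84 and 1.28 CPM in WT to 32.2, 44.7, 53.3 and 36.8 CPM in Odc-/- replicates (log2 fold change 4.91, SE 0.50, adjusted p = 1.22e-08). Cd244a, which binds CD48, rose from 2.35 ± 1.16 CPM to 44.4 ± 8.12 CPM, and Havcr2, which encodes TIM-3, from 2.69 ± 2.28 CPM to 39.5 ± 10.4 CPM (log2 fold change 3.89, and 4.66 without WT replicate 4). Pdcd1, the PD-1 receptor, had 107 ± 11.7 CPM and 153 ± 20.4 CPM, short of 2-fold (log2 fold change 0.52, SE 0.17, adjusted p = 0.00905). The member that fell was Ctla4. CD8 T, NK and γδ T cells also express Cd160, Cd244a and Havcr2, their marker sums were higher in the same libraries, as given above, and the part of such cells was not tested.

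Several genes of naive and recirculating T cells fell. Of 20 tested, 9 fell and 2 rose, against 10.1% and 13.9% of all genes, and the median was -0.77. Klf2, which keeps T cells quiescent and drives the expression of S1pr1, had 66.3, 97.4, 75.6 and 95.9 CPM in WT replicates and 18, 27.4, 22.4 and 27.2 CPM in Odc-/- replicates, with no overlap (log2 fold change -1.82, SE 0.20, adjusted p = 4.21e-08), and Klf3, a related factor, fell from 49.1 ± 7.38 CPM to 13.2 ± 4.38 CPM. The integrin chain Itga4, which guides T cells into tissue, fell by 3.36-fold, and S1pr1, the receptor by which T cells leave lymph nodes, by 2.74-fold. The chemokine receptor Ccr7 had 1154, 837, 1312 and 289 CPM in WT replicates, of which replicate 4 lay among the Odc-/- values of 481, 450.3, 287 and 573 CPM. Its log2 fold change was -1.005 and, without WT replicate 4, -1.30. Its call was lost without Odc-/- replicate 3, WT replicate 1 or WT replicate 3 (log2 fold changes -0.84, -0.86 and -0.76) and with a replicate block (-0.99). Il7r, the IL-7 receptor, showed the same library apart, with 24.1 CPM in WT replicate 4 and 110.2 to 213 CPM in the other WT libraries, and a log2 fold change of -1.60 with and -1.95 without it. Id2, an inhibitor of E proteins that marks effector cells, rose from 22.1 ± 6.18 CPM to 76.7 ± 17.8 CPM. In the IL-2 receptor system, 2 of 16 fell, a share near the 10.1% of all genes, among them Jak3, the kinase bound to the common γ chain (log2 fold change -1.27, SE 0.21, adjusted p = 1.32e-05). Cd28, the costimulatory receptor and the 1 called member of the T cell identity list, fell from 480.0, 367, 481 and 164 CPM in WT to 115, 77.5, 46.6 and 77.9 CPM in Odc-/- replicates. Without Odc-/- replicate 1 or WT replicate 4, 2 members of that list were called lower. Of 22 activation, AP-1 and NR4A factors, 5 fell and 2 rose (median -0.31), against 10.1% and 13.9% of all genes. The share that rose is under that of all genes. Without Odc-/- replicate 3, 3 fell, a share near the 10.1%. Fos, an early AP-1 subunit, fell from 16.1 ± 1.54 CPM to 3.62 ± 0.877 CPM, and Batf3, a partner of JUN proteins, rose from 5.27 ± 1.2 CPM to 25.4 ± 13.1 CPM.

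**Figure D3:**
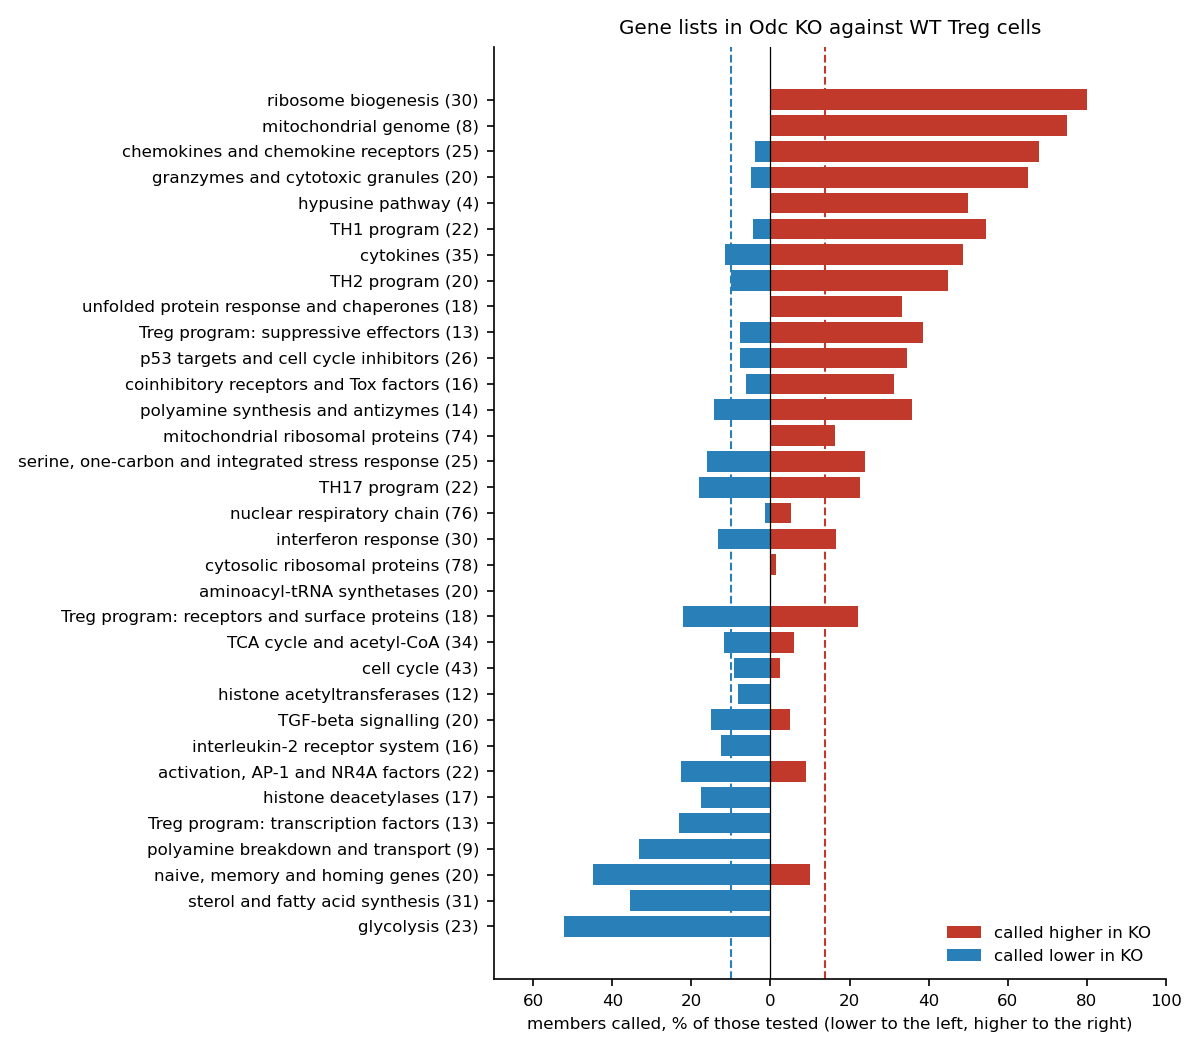
Share of the tested members of each gene list other than the cell type marker lists (number tested in parentheses) called higher (red, right) or lower (blue, left) in Odc-/- against WT Treg cells, in percent. Dashed lines mark the shares over all genes tested, 13.9% higher and 10.1% lower. Among the lists plotted, with all libraries, ribosome biogenesis has the largest share higher (24 of 30) and glycolysis the largest share lower (12 of 23). Without Odc-/- replicate 2 or 4, glycolysis had 11 of 23 lower and the naive, memory and homing genes 10 of 20.

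Around the missing enzyme, several genes of polyamine synthesis rose, and the breakdown genes Smox and Sat1 fell. Of 14 synthesis and antizyme genes tested, 5 rose and 2 fell, and 1 fell without Odc-/- replicate 2 or 4 or WT replicate 1 or 3. The share that fell is close to the 10.1% of all genes, of which 13.9% rose. Srm, the spermidine synthase that uses the product of ODC, had 186, 172, 216 and 163 CPM in Odc-/- replicates and 13.2, 15.7, 12.3 and 66.4 CPM in WT replicates. WT replicate 4 was the far one and lay below every Odc-/- library (log2 fold change 2.78, SE 0.44, adjusted p = 9.59e-06, and 3.74 without that replicate). The genes that supply decarboxylated S-adenosylmethionine rose as well. Amd1, the decarboxylase, rose from 36.8 ± 16 CPM to 90.5 ± 11.3 CPM, Mat2a, which makes S-adenosylmethionine, from 140.3 ± 77.7 CPM to 399.9 ± 34.8 CPM, and Mtap, which salvages methylthioadenosine, from 25.3 ± 14.6 CPM to 74.8 ± 5.91 CPM. Amd2, a close copy of Amd1 with which it can share reads, had 0.212 to 0.699 CPM in WT and 1.08 to 2.33 CPM in Odc-/- libraries. Sms, the spermine synthase, had 68.2 ± 7.19 CPM and 73.2 ± 2.98 CPM (log2 fold change 0.10, SE 0.15, adjusted p = 0.576). Oaz2, an antizyme that targets ODC for degradation and blocks polyamine uptake, fell from 44.3 ± 7.22 CPM to 14 ± 2.68 CPM.

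Of 9 breakdown and transport genes, 3 fell, against 10.1% of all genes, 0 rose, and the median log2 fold change was -0.04. Smox, the spermine oxidase, had 141, 136, 148 and 141 CPM in WT replicates and 34.5, 23.1, 29.3 and 23.3 CPM in Odc-/- replicates, a log2 fold change of -2.36 (SE 0.42, adjusted p = 3.74e-05). Sat1, the acetyltransferase that starts polyamine export and breakdown, fell from 198 ± 41.2 CPM to 69 ± 6.43 CPM, and the transporter Slc12a8 from 2.95 to 1.001 CPM. Of 4 hypusine pathway genes, 2 were called higher, against 13.9% of all genes. Eif5a, the protein that carries hypusine, had 565, 762, 564 and 1224 CPM in WT replicates and 1718, 1609, 2063 and 1554 CPM in Odc-/- replicates (log2 fold change 1.16, SE 0.17, adjusted p = 1.66e-06). Dohh rose from 31.3 ± 8.77 CPM to 67.7 ± 13.9 CPM, a call that was lost without Odc-/- replicate 3. Dhps had a log2 fold change of 0.89 (SE 0.13, adjusted p = 1.53e-06), short of 2-fold, and was called at 1.01 without WT replicate 4.

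**Figure D4:**
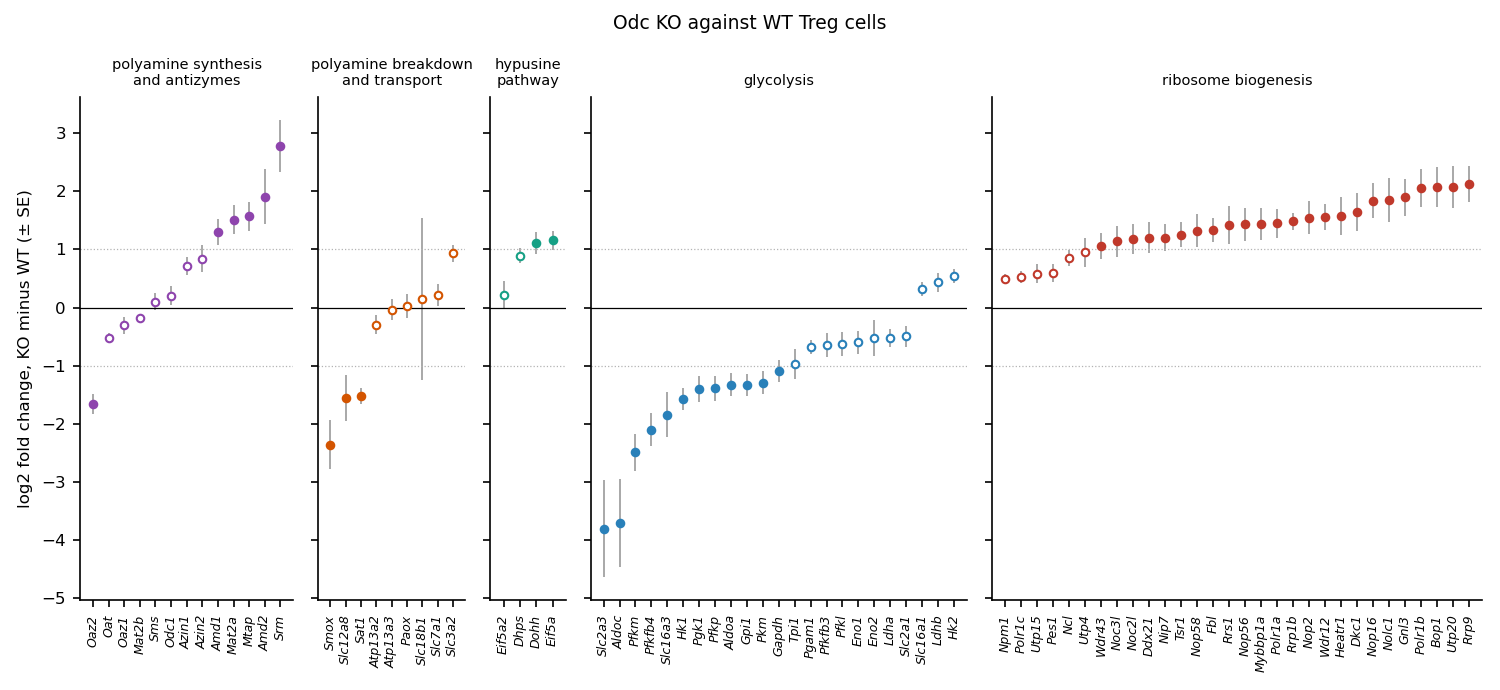
Log2 fold changes of Odc-/- against WT Treg cells (points, with bars of 1 SE) for members of 5 metabolic lists, ordered by value, with filled points for called genes and dotted lines at 2-fold. Srm is at 2.78 and Smox at -2.36, most glycolysis genes lie below 0, and all 30 ribosome biogenesis genes lie above 0.

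Genes of glycolysis, which splits glucose into pyruvate, were lower. Of 23 genes tested 12 fell, against 10.1% of all genes. With an adjusted p-value below 0.05 whatever the fold 19 were lower, and the median log2 fold change was -1.09. The glucose transporter Slc2a3 had 791, 566, 806 and 273 CPM in WT replicates and 83.6, 29.3, 30.3 and 30.9 CPM in Odc-/- replicates, a log2 fold change of -3.81 (SE 0.84, adjusted p = 4.31e-04). Aldoc, an aldolase, had 296, 305, 314 and 166 CPM and 48.6, 4.34, 20.6 and 9.51 CPM (-3.71, SE 0.76, adjusted p = 2.18e-04, and -4.56 without Odc-/- replicate 1). The phosphofructokinase Pfkm fell from 84.9 ± 27.8 CPM to 15.1 ± 2.82 CPM, Pfkfb4, which sets the level of its activator, from 17.6 ± 3.58 CPM to 4.07 ± 1.13 CPM, and the lactate exporter Slc16a3 from 447 ± 57.6 CPM to 125 ± 88.2 CPM. The most abundant enzymes fell by less. Gapdh had 4656, 4959.9, 5023 and 4319 CPM in WT and 2986, 1385, 2757 and 1754 CPM in Odc-/- replicates, a call that was lost without Odc-/- replicate 2 or 4, and Pkm, the pyruvate kinase, 4196, 4882, 4291 and 4616 CPM and 2731, 1029, 2191 and 1369 CPM. Hk1, the hexokinase that starts the pathway, fell from 533 ± 19.5 CPM to 179 ± 34.5 CPM, whereas Hk2, the induced hexokinase, had 99.7 ± 8.52 CPM and 145 ± 25.9 CPM (log2 fold change 0.54, SE 0.12, adjusted p = 4.65e-04, short of 2-fold). Within the Odc-/- group, replicates 1 and 3 lay above replicates 2 and 4 for Aldoc, Gapdh, Pkm and Pgk1.

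The promoters of the called glycolysis genes were read because these genes moved together. The letters ACGTG, the core of the site bound by hypoxia-inducible factors, were searched on both strands in the 250 bases before each transcription start listed in RefSeq for GRCm38. At least 1 listed window held them in 5 of 11 called glycolysis genes with a listed window and in 11 of 22 tested ones, against 2558 of 10137 (25.2%) of all tested genes with a window. The letters CACGTG, the E-box that contains ACGTG and that MYC and MAX can bind, were found in 1 of the 11 called genes, in 4 of the 22 and in 9.74% of the 10137 genes. The stretches of 60 bases that hold the match nearest to a start in the 5 called genes, with both strands of ACGTG in capitals, are as follows.
Pfkm (chr15:98092427-98092486, plus strand): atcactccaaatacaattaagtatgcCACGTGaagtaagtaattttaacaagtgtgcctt
Slc16a3 (chr11:120949007-120949066, plus strand): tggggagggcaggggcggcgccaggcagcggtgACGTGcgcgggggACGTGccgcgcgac
Pgk1 (chrX:106186942-106187001, plus strand): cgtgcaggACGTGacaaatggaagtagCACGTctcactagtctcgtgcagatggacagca
Aldoa (chr7:126799348-126799407, minus strand): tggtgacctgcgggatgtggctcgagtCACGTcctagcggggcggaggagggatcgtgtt
Pkm (chr9:59657125-59657184, plus strand): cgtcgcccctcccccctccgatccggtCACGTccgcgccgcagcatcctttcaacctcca

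Slc16a3 and Pgk1 hold 2 matches each within 60 bases, and in Pfkm the matches of both strands overlap in an E-box. These 5 genes fell by 5.63-fold, 3.59-fold, 2.64-fold, 2.51-fold and 2.46-fold in the order printed. The other 6 called genes with a window, among them Aldoc, Pfkfb4, Hk1 and Gapdh, fell with no match, Aldoc by 13.1-fold. A match in these letters is a description and was not tested as a binding site.

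Genes of lipid synthesis were lower as well. Of 31 sterol and fatty acid synthesis genes 11 fell, against 10.1% of all genes. With an adjusted p-value below 0.05 whatever the fold 26 were lower, and the median was -0.87. Scd1 and Scd2, the desaturases that make monounsaturated fatty acids, fell from 586 ± 13.9 CPM to 173 ± 76.3 CPM and from 2634 ± 221 CPM to 807 ± 383 CPM. Stard4, a cholesterol carrier, fell by 2.9-fold and Hmgcs1, which makes the precursor of mevalonate, by 2.31-fold. In the list of the TCA cycle and acetyl-CoA, 4 of 34 fell and 2 rose (median 0.11), a share lower that is near the 10.1% of all genes. Pdk1, the kinase that shuts pyruvate dehydrogenase, fell from 424, 410.1, 417 and 261 CPM in WT to 104, 47.7, 68.7 and 63.3 CPM in Odc-/- replicates (log2 fold change -2.42, SE 0.33, adjusted p = 1.0e-06), and Acss2, which makes acetyl-CoA from acetate, from 70.04 ± 20.8 CPM to 9.51 ± 2.26 CPM. The citrate carrier Slc25a1 fell by 2.09-fold, a call that was lost without Odc-/- replicate 2 or 4, and Acly, which splits citrate into acetyl-CoA, had a log2 fold change of -0.87 (SE 0.12, adjusted p = 9.4e-07). Idh3a, a subunit of isocitrate dehydrogenase, lay at the threshold (log2 fold change 1.01) and was not called with the size factors of DESeq2, in a fit of the 8 Treg libraries alone or without Odc-/- replicate 3, WT replicate 1 or WT replicate 3.

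With all libraries and the thresholds given above, genes for building ribosomes were called higher at the largest share of any non-marker list. Of 30 tested 24 rose, against 13.9% of all genes. All 30 had an adjusted p-value below 0.05, and the median log2 fold change was 1.43. Without WT replicate 3 the count was 21 of 30, against 7 of 8 genes of the mitochondrial genome. With a test against a 2-fold change it was 9 of 30, against 11 of 20 granzymes and granule genes. Polr1b, a subunit of RNA polymerase I, had 11.9, 14.8, 10.7 and 42.5 CPM in WT replicates and 78.5, 95.2, 76.2 and 80.5 CPM in Odc-/- replicates (log2 fold change 2.05, SE 0.33, adjusted p = 9.53e-06). Rrp9, Utp20 and Bop1, which process ribosomal RNA, rose from 20.9 ± 12.7 CPM, 19.7 ± 15.5 CPM and 34.9 ± 25.9 CPM to 91.2 ± 3.92 CPM, 82.8 ± 7.79 CPM and 147 ± 10.7 CPM. The nucleolar GTPase Gnl3 rose from 47.7 ± 35.3 CPM to 177 ± 8.72 CPM. Npm1, the abundant nucleolar chaperone, had a log2 fold change of 0.49 (SE 0.09, adjusted p = 2.71e-05). WT replicate 4 was the highest WT library in each of these genes and stood between the groups. On the scale of mean log2(CPM + 0.5) over the list, it was at 6.79, the other WT libraries at 5.31 to 5.74 and the Odc-/- libraries at 7.25 to 7.37. Without it, 26 of the 30 were called, the median was 1.90, and the log2 fold changes of Polr1b, Utp20, Bop1 and Gnl3 were 2.73, 2.77, 2.72 and 2.55, against 2.05, 2.08, 2.07 and 1.90 with it. Cytosolic ribosomal protein genes were short of 2-fold but for 1 of 78, with a median of 0.49.

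Most other genes of protein synthesis and of the mitochondria had log2 fold changes above 0 but short of 2-fold. Of 20 aminoacyl-tRNA synthetases 0 were called by edgeR and 0 by DESeq2, although 15 had an unadjusted p-value below 0.05, and without WT replicate 4 6 were called higher. Of 74 mitochondrial ribosomal protein genes 12 were called higher (median 0.64), a share near the 13.9% of all genes, and 22 without WT replicate 4. Nuclear genes of the respiratory chain were called higher at 4 of 76, a share under the 13.9% of all genes, and lower at 1 (median 0.53), and higher at 11 without WT replicate 4 and at 1 without Odc-/- replicate 3. Transcripts of the mitochondrial genome rose at 6 of 8 genes (median 1.65), against 13.9% of all genes. The complex I subunit mt-Nd4 had 325, 186, 371 and 253 CPM in WT and 985, 1292, 1063 and 808 CPM in Odc-/- replicates, mt-Cytb of complex III rose from 985 ± 207 CPM to 3492 ± 558 CPM, and mt-Co1, the most abundant of the 3, had a log2 fold change of 0.67 (SE 0.15, adjusted p = 5.6e-04). Of 18 unfolded protein response and chaperone genes 6 rose, against 13.9% of all genes. They included the endoplasmic reticulum genes Sdf2l1 (log2 fold change 1.89, SE 0.30) and Calr, which encodes calreticulin (1.32, SE 0.14). Of 25 genes of serine and one-carbon metabolism and the integrated stress response, 6 rose and 4 fell, against 13.9% and 10.1% of all genes. Nupr1, a stress-induced chromatin protein, rose from 14.5, 20.05, 11.8 and 36.1 CPM in WT replicates to 38.1, 155, 55.7 and 148 CPM in Odc-/- replicates, Cebpb, a factor of the stress response, from 10.3 ± 10.3 CPM to 42.7 ± 12.2 CPM, and Shmt1, which passes the carbon of serine to folate, from 24.5 ± 22.3 CPM to 89.98 ± 7.46 CPM. Ddit4, an inhibitor of mTORC1, fell from 262 ± 41.8 CPM to 102 ± 9.6 CPM, and the lipoprotein receptor Vldlr from 53.9 ± 15.2 CPM to 4.07 ± 5.65 CPM (log2 fold change -3.74, and -5.39 without Odc-/- replicate 1). The log2 fold changes of Cebpb and Shmt1 were 2.06 and 1.88, and 3.04 and 2.75 without WT replicate 4.

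Changes of proliferation genes went in both directions, and most were short of 2-fold. Of 43 cell cycle genes 4 fell and 1 rose, with a median of -0.06, a share lower near the 10.1% of all genes and a share higher under their 13.9%. Whatever the fold, 31 of the 43 had an adjusted p-value below 0.05. Mki67, a marker of cycling cells, had 1184 ± 76.3 CPM in WT and 705 ± 98.4 CPM in Odc-/- cells (log2 fold change -0.75, SE 0.12, adjusted p = 5.97e-06), and the mitotic checkpoint kinase Bub1 fell from 130.4 ± 10.4 CPM to 55.7 ± 4.05 CPM. Mcm2, a subunit of the replicative helicase, had a log2 fold change of 0.97 (SE 0.25, adjusted p = 0.00154), with WT replicate 4 at 201 CPM against 65.0 to 102 CPM in the other WT libraries, and was called without WT replicate 4 (1.43) or Odc-/- replicate 1. Without WT replicate 4, 7 cell cycle genes were called higher. Ccnd1, which encodes cyclin D1, rose from 0.55 to 5.45 CPM. Among 26 p53 targets and cell cycle inhibitors, 9 rose and 2 fell, against 13.9% and 10.1% of all genes. In this list 5 fell without Odc-/- replicate 2 or WT replicate 4 and 4 without Odc-/- replicate 4. Bax, which permeabilizes mitochondria, rose from 66.3 ± 6.8 CPM to 179.5 ± 8.76 CPM, the nuclease Aen from 19 ± 9.99 CPM to 82.4 ± 7.34 CPM and the inhibitor gene Cdkn2a from 0.171 to 2.23 CPM (log2 fold change 3.62, and 4.66 without WT replicate 4), whereas the CDK inhibitor Cdkn1b fell by 2.51-fold. Of 30 interferon response genes, 5 were called higher and 4 lower, shares near the 13.9% and 10.1% of all genes. Irf7, the factor that amplifies type I interferon, fell from 26.8 ± 4.4 CPM to 7.57 ± 3.44 CPM, whereas Ciita, the activator of MHC class II genes, rose from 1.54 ± 0.672 CPM to 17 ± 7.19 CPM and the guanylate-binding protein Gbp4 from 19 ± 3.63 CPM to 62.2 ± 13 CPM. Of the markers of dendritic cells and MHC class II 6 of 7 tested rose, against 13.9% of all genes, and 4 without Odc-/- replicate 1. Their sums overlapped between genotypes, and their part in the level of Ciita was not tested. Of 12 histone acetyltransferases 1 fell, a share near the 10.1% of all genes. It was Kat6b (log2 fold change -1.52, SE 0.25, adjusted p = 1.29e-05), and Ep300, which encodes p300, had a log2 fold change of -0.77 (SE 0.14, adjusted p = 4.52e-05), short of 2-fold. Of 17 histone deacetylases 3 fell, against the same 10.1%, and Hdac7, which is exported from the nucleus on T cell receptor signalling, had 718, 626, 806 and 504 CPM in WT and 194, 118, 154 and 150.3 CPM in Odc-/- replicates.

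The effect of Odc deficiency in Treg cells was then set against its effect in the other subsets by testing the difference of the log2 fold changes in the same fit. Against the mean of TH1, TH2 and TH17 cells, the effect differed at 1161 genes (8.39%), more positive in Treg cells at 776 and more negative at 385. Against TH17 cells alone it differed at 661 genes (4.78%), at 1001 without WT replicate 4 and at 974 with a block for libraries of 1 genotype and number.

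Foxp3 was among the genes whose effect differed. Its log2 fold change was -0.23 in Treg cells and 2.62 in TH17 cells, where it rose from 17.3 ± 5.81 CPM to 106 ± 65 CPM, a difference of -2.85 (SE 0.43, adjusted p = 7.88e-05). Against the mean of the other subsets the difference was -1.52 (SE 0.37, adjusted p = 0.00346). Itgae rose by 3.27 in Treg and by 1.79 in TH17 cells, the cultures with TGF-β, and had -0.47 in TH1 and -1.79 in TH2 cells, a difference from their mean of 3.42 (SE 0.37, adjusted p = 2.28e-07). Ahr had 1.81 in Treg cells against -0.51 in TH17, 0.34 in TH1 and -1.67 in TH2 cells (difference 2.42, adjusted p = 4.93e-08).

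Of the 1161 genes whose effect differed, 664 had a mean of at least 5 CPM over the 8 Treg libraries. Genes below that level in Treg cells were left out of the ranking, whatever their level in the other subsets. Among these, the effect in Treg cells lay furthest above the mean of the other subsets for Spns2, Klra5, Cd93, Adora3 and Pyroxd2. Spns2 rose in both cultures with TGF-β, to 17 ± 3.16 CPM in Treg and 22.7 ± 22.9 CPM in TH17 cells, and its effect in these was not called different. P2rx2 also rose in both, but its effect in Treg cells was not called different from the mean of the other subsets. Klra5 was called higher in Treg, TH1 and TH17 cells and its effect in Treg cells was the larger by this test. Cd93, a receptor of endothelial and myeloid cells, had 2.76 in Treg cells and -2.02, -2.48 and -0.87 in TH1, TH2 and TH17 cells. Adora3, an adenosine receptor, had 3.89 against -1.37, -1.5 and 1.54, and Pyroxd2, an oxidoreductase, 1.45 against -1.96, -5.82 and -0.75. In TH2 cells Pyroxd2 had 0 counts in the Odc-/- libraries, so that its fitted value there depends on the prior count.

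Among the same 664 genes, those furthest below were Trat1, Ifi203, Dsp, Serpina3f and Rtp4. Trat1 was expressed at 33.4 to 48.7 CPM in WT Treg cells and at under 3 CPM on average in the WT cells of the other subsets, and its difference was -4.92 (SE 0.44, adjusted p = 1.21e-08). The interferon-induced genes Ifi203 and Rtp4 fell in Treg cells (-1.46 and -1.20), whereas Ifi203 rose in TH1, TH2 and TH17 cells (2.27, 3.21 and 1.5). Rtp4 had 3.91 in TH1, 1.19 in TH2 and 2.18 in TH17 cells, from WT levels near 0. The desmosomal gene Dsp had 0.74 (SE 0.61, adjusted p = 0.306) in Treg cells and was called higher in each of the other subsets, and the serine protease inhibitor Serpina3f had 1.17 in Treg, 3.81 in TH1, 7.65 in TH2 and 2.96 in TH17 cells. Its call in Treg cells was lost in 5 of the 8 fits that left out a Treg library. Among genes described above, the effect in Treg cells was also the more negative for Klf2 (difference -1.32), Klf3 (-2.52), Itga4 (-2.76), Cd28 (-1.41), Nr4a1 (-1.63), Bub1 (-1.03), Acss2 (-1.22) and Scd1 (-1.44), and the more positive for Il10 (3.25), Gzma (4.13), Gzmb (2.32), Cd8a (3.30), Klrk1 (2.96) and Trdc (1.75). The effect also differed for 7 of 10 CD8 T and NK cell markers, against 8.39% of all genes. Their median log2 fold change was 3.06 in Treg cells and 0.45, 0.51 and 0.83 in TH1, TH2 and TH17 cells. The effect differed for 2 of 7 γδ T cell markers and 1 of 7 dendritic cell and MHC class II markers. Among myeloid, B cell and basophil and mast cell markers it differed for 1 of 14, 0 of 10 and 0 of 12. The γδ T cell median was 2.61, 2.38 and 3.28 in TH1, TH2 and TH17 cells. In the same order the myeloid median was 2.42, 2.43 and 2.28 and the B cell median 2.95, 2.79 and 1.61. The part of cells of these types in the differences was not tested.

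**Figure D5:**
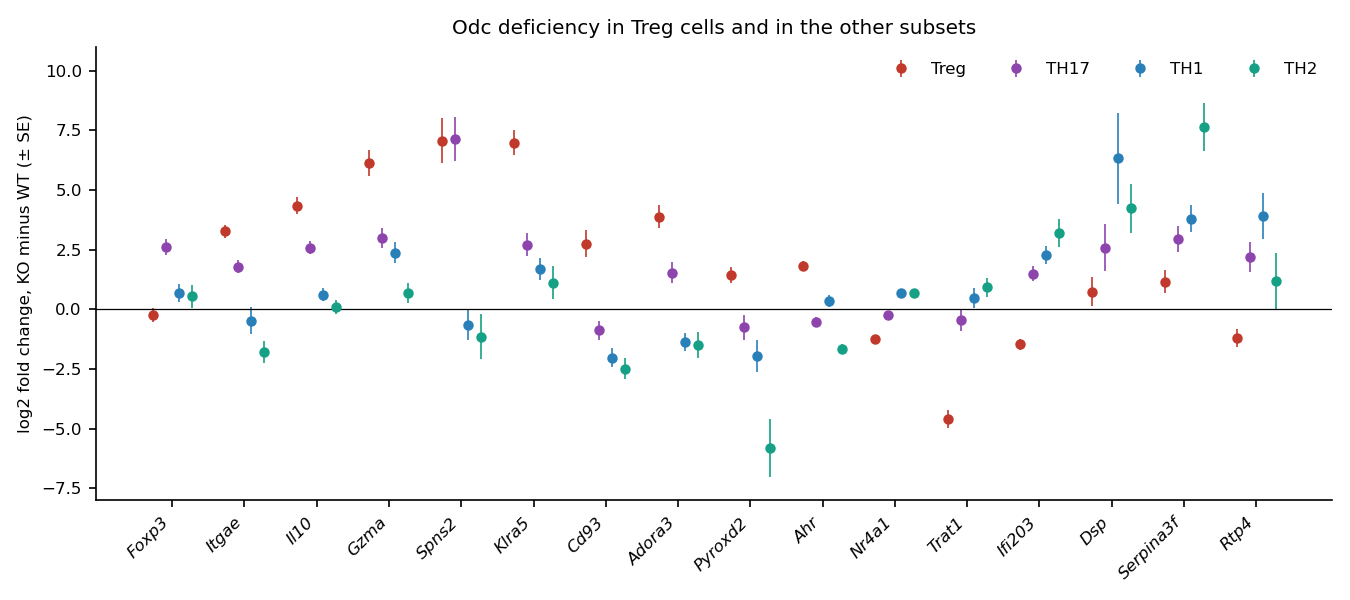
Log2 fold changes of Odc-/- against WT cells (points, with bars of 1 SE) in Treg, TH17, TH1 and TH2 cells for 16 genes whose effect in Treg cells differed from the mean of the other subsets. Spns2 rises in Treg and TH17 cells, and Foxp3 stands at -0.23 in Treg and 2.62 in TH17 cells.

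Genes that mark each subset were taken from the WT libraries of the Dohh table, which the Treg comparison does not use. Of 98 tested genes of the Treg signature, 32 fell and 21 rose in Odc-/- Treg cells (median -0.08). Of 99 genes of the TH1 signature 38 rose and 10 fell (median 0.41), of 100 of the TH2 signature 29 rose and 15 fell (median 0.25), and of 78 of the TH17 signature 24 rose and 19 fell (median 0.17). The Treg signature thus had the largest share lower of the 4, 32.7%, against 10.1% of all genes, and 21.4% higher. Signature genes were chosen by their level in WT cells, and the shares over all genes are not matched for level. Over all genes, those called lower had a median of 15.2 CPM in WT Treg cells and those called higher 2.14 CPM. The part of this choice in the shares was not tested. The TH1 signature had 38.4% higher, against 13.9% of all genes. Gzmb and Klrk1 were among its largest increases. CD8 T and NK cell markers were higher in the same libraries, and the part of such cells was not tested.

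Treg cells without Dohh, the enzyme that completes hypusine, were measured in other libraries (3 Dohh-/- and 3 WT) that were counted and normalized apart, so values stand side by side and differences between the deficiencies were not tested. Foxp3 had a log2 fold change of -2.44 (SE 0.46, adjusted p = 2.0e-04) in Dohh-/- and of -0.23 in Odc-/- Treg cells. Ifng had 5.58 and 3.63, Gzmb 7.96 and 4.76, Il10 6.32 and 4.34, and Tbx21 3.88 and 1.95, in that order. Gpr83 had -3.35 in Dohh-/- against 1.5 in Odc-/- cells, and Tnfrsf9 0.53 against -1.17. Il9 had 0.69 (SE 0.74) in Dohh-/- and 5.94 in Odc-/- cells, and Hrh3 -4.37 and 5.75. The glycolysis enzymes Gapdh, Pkm and Hk1 had -0.14, -0.07 and 0.00 in Dohh-/- cells and -1.09, -1.30 and -1.57 in Odc-/- cells. Scd1 had -0.20 in Dohh-/- and -1.76 in Odc-/- cells, Srm 2.29 and 2.78, and Rrp9 1.59 and 2.13.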

How the data were processed

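Libraries were made by the authors from poly(A) RNA (TruSeq stranded mRNA kit, HiSeq), and the submitters' processing notes name STAR, featureCounts, deepTools, DESeq2 and mm10. The annotation release and the strand setting of the counting are not given in the sources used here. The deposited values are raw read counts per gene. The table of the Odc cultures holds 31 libraries, since 1 TH2 Odc-/- sample has no column. Members, gene lists and tests were chosen with earlier results of these data known.

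Counts were fitted with edgeR 4.0.16 in R 4.3.3 (quasi-likelihood test, TMM scaling, filterByExpr over 8 groups, 1 mean per group) and p-values were adjusted by Benjamini-Hochberg over all 13839 genes. Genes were called at a fold change above 2 and adjusted p below 0.05. CPM are counts per 1000000 of the TMM-scaled library size. A library's floor was 3 counts, 0.310 to 0.396 CPM, and covers counting error only. The scripts were tested on simulated data. Named genes were Odc1, Foxp3, up to 4 called members of each list with the largest change in each direction, defining members, the 10 largest changes each way and the 5 largest differences of effect each way. Aldoa, Bax, Ccl22, Crtam, Gnl3, Hk1, Hmgcs1, Il13, Lta, Mcm2, Mcpt8, Penk, Pgk1, S1pr1 and Slc16a3 were added after their values were seen. The defining members of the lists, such as Il2ra, Gata3 and Cd4, were likewise picked with their values in view. Promoter windows came from RefSeq for GRCm38. Alternatives covered scaling, DESeq2 1.42.0, filters, thresholds, a replicate block, the 8 Treg libraries alone and each library left out. The labels call the libraries biological replicates without naming animals, so p-values measure the spread between these cultures. Some genes of the lists are not reported here by name.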

Additional observations from a re-analysis of the deposited data

Results flagged for a closer look

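Single libraries stood apart from the other 3 of their group in 38 of 342 groups of values for named genes and marker lists (the gap to the nearest library was above the 95% limit of Dixon's test), and chance flags about 1 in 20 groups. WT replicate 4 stood apart for Bambi (6.29 CPM), Il9 (7.34 CPM), Srm (66.4 CPM), Mat2a (256 CPM), Aldoc (166 CPM), Hk2 (112 CPM), Pdk1 (261 CPM), Rrp9 (39.7 CPM), Polr1b (42.5 CPM), Cdkn1b (141 CPM), Sdf2l1 (55.5 CPM), Calr (578 CPM), Ccl1 (4.89 CPM), Gnl3 (100.3 CPM), Cebpb (25.6 CPM), Shmt1 (57.7 CPM) and Lta (563 CPM). Odc-/- replicate 1 stood apart for Ctla4 (269 CPM), Gzmd (50.1 CPM), Prf1 (134 CPM), Il7r (60.6 CPM), Slc2a3 (83.6 CPM), Gipr (2.64 CPM), Smtnl2 (0.925 CPM), Ciita (27.7 CPM) and Lta (1179 CPM). Odc-/- replicate 3 stood apart for Ccnd1 (10.1 CPM), Mcpt8 (54.4 CPM), S100a8 (166 CPM), S100a9 (261 CPM), Ngp (131 CPM), the sum of markers of basophils and mast cells (236 CPM) and the sum of markers of myeloid cells (858 CPM). WT replicate 2 stood apart for Cxcr6 (3.20 CPM), Cd8b1 (9.92 CPM), Klra5 (0 CPM) and Hrh3 (1.34 CPM). Odc-/- replicate 2 stood apart for Spns2 (12.3 CPM). WT replicate 4 also had the highest ribosome biogenesis level of the WT libraries and Odc-/- replicate 3 the highest myeloid and mast cell sums, and the part of either in single genes was not tested.

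The effect of Odc deficiency in Treg cells differed from its mean in TH1, TH2 and TH17 cells, by the interaction test of edgeR, for 44 named genes. The log2 fold change in Treg cells lay above that mean for Spns2 (5.30), Klra5 (5.14), Cd93 (4.55), Adora3 (4.33), Pyroxd2 (4.29), Gzma (4.13), Il17a (3.73), Itgae (3.42), Cd8a (3.30), Il10 (3.25), Il24 (3.08), Klrk1 (2.96), Ahr (2.42), Gzmb (2.32), Cd244a (2.19), Fgl2 (1.96), Gzmc (1.94), Ccnd1 (1.90), Id2 (1.76), Trdc (1.75), Batf3 (1.70), Cxcr6 (1.64), Cebpb (1.56), Havcr2 (1.51) and Lta (1.32). The log2 fold change in Treg cells lay below that mean for Trat1 (-4.92), Ifi203 (-3.79), Dsp (-3.65), Serpina3f (-3.64), Rtp4 (-3.63), Hap1 (-3.41), Itga4 (-2.76), Tgm2 (-2.72), Epas1 (-2.57), Klf3 (-2.52), Fos (-2.09), Nr4a1 (-1.63), Irf7 (-1.55), Foxp3 (-1.52), Scd1 (-1.44), Cd28 (-1.41), Klf2 (-1.32), Acss2 (-1.22) and Bub1 (-1.03). For genes at or near 0 counts in a group, such as Spns2, Klra5, Hap1, Dsp, Serpina3f and Rtp4, the fitted difference depends on the prior count.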

How the results depend on the processing

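The 3318 calls became 8274 with an adjusted p below 0.05 alone, 1503 with a test against a 2-fold change (glmTreat) and 1775 among genes with a mean count of at least 50. In the same order the 1922 higher calls became 4547, 937 and 925, the 1396 lower calls 3727, 566 and 850, the 1161 differences from the mean of the other subsets 3401, 246 and 598, and the 661 differences from TH17 cells 1488, 93 and 416. With adjusted p below 0.01 the last count was 368. The first alone drops the fold threshold, and the others test a stricter one or fewer genes. Leaving out each Treg library in turn gave 3022 to 3851 calls, 1772 to 2238 higher and 1250 to 1613 lower. It gave 988 to 1219 differences from the mean of the other subsets and 511 to 1001 from TH17 cells, the highest without WT replicate 4 (the cause was not tested).

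With an adjusted p below 0.05 alone, glycolysis had 19 genes lower and sterol synthesis 26. With glmTreat, glycolysis and sterol synthesis had 6 lower each, naive and homing genes 4 lower, cytokines 8 higher and ribosome biogenesis 9 higher. In a fit of the 8 Treg libraries alone 8 granzymes and granule genes were called higher instead of 13 (the cause was not tested). With signatures from the WT libraries of the Odc table, which are also the controls of the comparison, 12% of TH17 signature genes were lower instead of 24.4% and 43% were higher, above the 40% of the TH1 signature. Odc1 stayed uncalled under each alternative.

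The study used littermates of like age and sex, and the labels do not say which libraries came from 1 litter. In the labels, same-numbered Odc-/- and WT Treg libraries share only a number. The correlations of their deviations were 0.122, 0.0017, -0.0179 and 0.00656, and 1 of 8 libraries correlated best with its own number. With a replicate block 3380 genes were called, 1979 higher and 1401 lower, and among the named genes Ccr7 lost and Mcm2 gained its call. Libraries of 1 genotype and number in different subsets deviated together (correlation 0.147 to 0.576 in 23 pairs), and with a block for them 1407 effects differed from the mean of the other subsets and 974 from TH17 cells.

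Of 2668 values of the 158 named genes under alternatives, 2568 kept their side of the threshold, and 81 lost and 19 gained a call. Direction reversed at 0 values where either fit called the gene. Changes of direction in uncalled genes were not counted, such as Cd3e, at 0.08 with all libraries and -0.02 without WT replicate 4. Alternatives that change only the threshold keep the fold changes of the main fit. Leaving out a library ended the call of 10 genes. Depth limits genes near the floor of 3 counts, where smaller differences may not have been detectable. Of the genes called higher, 263 were at or under the floor in WT cells.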
